A study of Ipomoea batatas with 12 samples.

Results

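The 3 genes described here are g23525, annotated as a probable linoleate 9S-lipoxygenase 5, g23527, annotated as allene oxide synthase 3-like, and g51141, annotated as 4-coumarate--CoA ligase-like 5, out of 45142 genes in the deposited table of sweetpotato (Ipomoea batatas) root RNA. They were chosen by their levels in the 3 wild-type libraries, where each was low in the developing root alone. The wild-type values are therefore a description, and the tests below compare only the 9 libraries of plants overexpressing the gene MBP3, which had no part in the choice. The fit and its scaling used all 12 libraries. All 3 genes passed the filter on low values, a mean of at least 0.5 FPKM (fragments per kilobase of exon, scaled to the mapped fragments of the library) over the 12 libraries, as did 28065 genes in all.

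The wild type (WT) was cultivar Taizhong 6, represented by a single library per stage, namely fibrous roots at 20 days (FR), tuberous roots still developing (DR) and mature ones at 4 months (MR). The sample labels give DR an age of 1 month, and the series description gives 60 days after planting. Roots overexpressing MBP3 (MBP3-OE) were sampled at 20 days, 1 month and 4 months, each age with 3 libraries that carry the numbers 2, 3 and 8, and both genotypes grew in a greenhouse. According to the methods each WT library pooled roots of several plants. The sources used here give neither the promoter of the transgene nor whether 2, 3 and 8 are lines or plants, so every p-value measures only the spread between these samples.

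Library totals ran from 39424503 to 58486728 counts. MBP3 itself (g4107) stood at 15.3, 23.2 and 83.2 FPKM in WT FR, DR and MR, against 67.3 to 78.4 FPKM in MBP3-OE at 20 days, 29.7 to 58.3 FPKM at 1 month and 55.8 to 121 FPKM at 4 months, so at 4 months the WT library lay inside the MBP3-OE range. Sporamin, the storage protein that marks tuberous root tissue, had a share of counts that went from 0.0260% (FR) through 0.289% (DR) to 11.9% (MR), and in MBP3-OE it took 0.0666% to 0.160%, 0.418% to 1.70% and 8.68% to 17.8% at the same ages. Markers of green tissue took at most 0.0690% of counts in WT and 0.538% to 1.08% in MBP3-OE at 4 months. The part of either tissue difference in the results below was not tested.

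Lipoxygenases add oxygen to linoleic and linolenic acid, and the side of the chain they attack decides the family of oxylipins that follows. Allene oxide synthases, cytochrome P450 enzymes of the CYP74 family, turn the hydroperoxides into unstable allene oxides. In the 13-lipoxygenase branch of the chloroplast the product goes on through allene oxide cyclase and 12-oxophytodienoate reductase, is activated by a CoA ligase in the peroxisome and shortened by beta-oxidation to jasmonic acid, the wound hormone. The 9-lipoxygenase branch, known from potato tubers and from potato and tomato roots, makes other oxylipins.

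The first 2 genes are neighbours. On linkage group 6, in the coordinates of the deposited table, g23525 occupies positions 19674471 to 19680008 on the minus strand and g23527 positions 19685863 to 19687567 on the plus strand. They point away from each other, with their annotated starts 5855 bp apart and the undescribed g23526 between them. The same arrangement occurs once more beside them, where g23523, another 9S-lipoxygenase 5 gene (19661912 to 19665618, minus strand), and g23524, another allene oxide synthase 3-like gene, have starts 5215 bp apart. With g23522 the cluster holds 2 lipoxygenase and 3 allene oxide synthase genes in 31395 bp.

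Only 3 of these 5 cluster genes were expressed above the filter. Mean FPKM over the 12 libraries was 88.0 for g23525, 89.6 for g23527 and 12.6 for g23523, against 0.00217 for g23522, 0.0155 for g23524 and 0.0798 for g23526. Across the 12 libraries the FPKM of g23525 was 0.531 to 2.65 times that of g23527 and 5.36 to 12.2 times that of g23523. How reads that match several copies were counted is not given in the sources used here, nor is the use of strand, so the split between g23525 and g23523 and between the allene oxide synthase copies is uncertain.

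**Figure D1:**
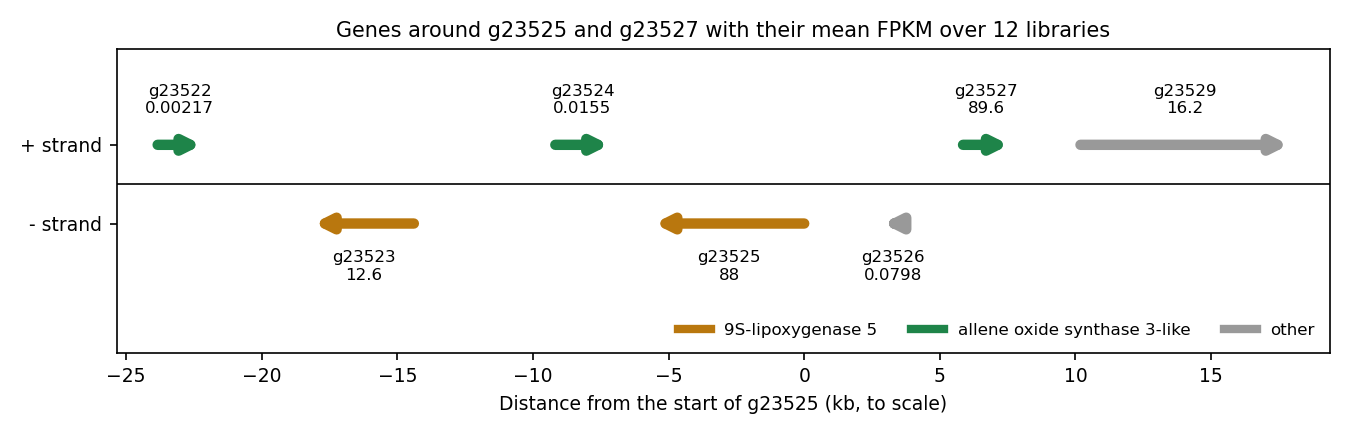
Map to scale of the genes around g23525 and g23527, with position as distance in kb from the annotated start of g23525, arrows giving strand and length, and the mean FPKM over 12 libraries printed under each name. The 2 lipoxygenase genes lie on the minus strand and the 3 allene oxide synthase 3-like genes on the plus strand, and g23525 and g23527 (88.0 and 89.6 FPKM) are the most expressed of the cluster.

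The third gene, g51141, lies apart on linkage group 12, positions 31477928 to 31481579 on the plus strand. Its description names a 4-coumarate--CoA ligase-like protein, a family best known for lignin and flavonoid precursors, while the Gene Ontology terms the table pairs with it are those of jasmonic acid biosynthesis, the peroxisome and wounding. For g23525 the table likewise gives a description of a 9-lipoxygenase beside a Gene Ontology term of 13-lipoxygenase activity. Its enzyme number there, EC:1.13.11.58, is that of linoleate 9S-lipoxygenase, but the F-box genes g23530 and g23531 carry the same number. Which of the annotations holds was not tested here.

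In WT, g23525 stood at 303 FPKM in FR, was at 11.2 FPKM in DR and at 372 FPKM in MR. The developing root was thus 25.1-fold below FR and 30.7-fold below MR on the FPKM + 1 scale, the third deepest low point of the 28065 genes. In these bulk samples fewer cells of a type and less RNA per cell cannot be told apart.

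The same shape was seen in g23527, where FR had 266, DR 15.6 and MR 386 FPKM, so that FR and MR were 16.1-fold and 23.4-fold above DR. Its neighbour g23523 had 49.9, 1.40 and 45.5 FPKM. For g51141 the values were 21.0, 2.47 and 49.1 FPKM, so that DR was 6.33-fold below FR and 14.4-fold below MR, and MR was 2.28-fold above FR. With 1 library a stage these ratios have no replicate check.

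A low point of at least 4-fold against both FR and MR, as all 3 genes have by their choice, occurred in 53 of 28065 genes, which is 0.189%. The last gene inside that limit was g46899, a sporamin B-like gene (log2 depth 2.0), and the first outside was g58581, an uncharacterized protein (log2 depth 1.98).

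In MBP3-OE, g23525, the 9-lipoxygenase, did not have its lowest values at 1 month. It stood at 40.7, 74.5 and 63.8 FPKM in the libraries numbered 2, 3 and 8 at 20 days, at 38.1, 78.0 and 29.1 FPKM at 1 month, and at 6.14, 12 and 27.3 FPKM at 4 months. The 20-day and 1-month libraries overlapped, and in FPKM each 4-month library lay below every younger one. On the scaled counts used for the test, 4 months number 8 lay above 1 month number 8. The means were 59.7 ± 17.3, 48.4 ± 26.0 and 15.1 ± 10.9 FPKM (SD, n = 3 each).

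The allene oxide synthase gene g23527 behaved much like it. It stood at 43.6, 90.6 and 92.8 FPKM at 20 days, at 65.8, 29.4 and 34.0 FPKM at 1 month, and at 6.35, 22.5 and 22.2 FPKM at 4 months, again in the order 2, 3 and 8. As for g23525, in FPKM only the 4-month libraries stood apart from both younger ages, while 20 days and 1 month overlapped. On scaled counts the 4-month and 1-month libraries overlapped too. The means were 75.7 ± 27.8, 43.1 ± 19.9 and 17.0 ± 9.24 FPKM (SD, n = 3 each).

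The CoA ligase-like gene g51141 did have a low point at 1 month. It stood at 12.9, 17.8 and 16.8 FPKM at 20 days, at 7.09, 7.83 and 6.47 FPKM at 1 month, and at 13.5, 19.7 and 14 FPKM at 4 months. All 1-month libraries lay below all others, and the 20-day and 4-month libraries overlapped. The means were 15.8 ± 2.59, 7.13 ± 0.683 and 15.7 ± 3.41 FPKM (SD, n = 3 each).

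**Figure D2:**
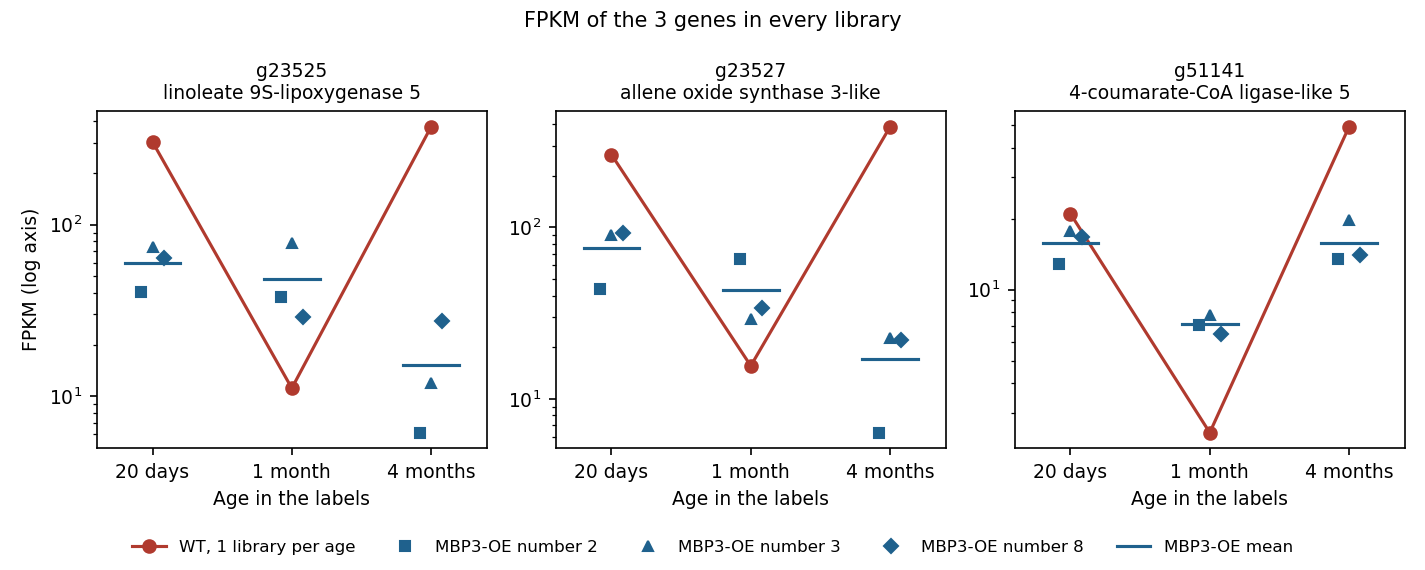
FPKM on a log axis of g23525, g23527 and g51141 in every library by age, with WT as red circles joined by a line (1 library per age), MBP3-OE numbers 2, 3 and 8 as blue squares, triangles and diamonds, and bars at the MBP3-OE means. WT was lowest at 1 month in all 3 genes, whereas in MBP3-OE the 1-month libraries were lowest only for g51141 (6.47 to 7.83 FPKM) and the 4-month libraries were lowest for g23525 and g23527.

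Ordered by level, g23525 was highest in MR, then FR, MBP3-OE at 20 days, at 1 month and at 4 months, and lowest in DR. MBP3-OE at 20 days and at 1 month overlapped, and the 4-month range of 6.14 to 27.3 FPKM held the 11.2 FPKM of DR. In FPKM the ranges at 1 month and 4 months did not overlap, but on scaled counts they did, and their difference was not called. MR and FR, with 1 library each, have no spread to compare. The order was the same for g23527, and there too DR (15.6 FPKM) lay within the 4-month range of 6.35 to 22.5 FPKM. For g51141 the order was MR, FR, MBP3-OE at 20 days and 4 months, which overlapped, MBP3-OE at 1 month, and DR.

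The question set by the WT pattern, whether MBP3-OE roots also have a low point at 1 month, was tested with edgeR's quasi-likelihood test on the counts, with Benjamini-Hochberg adjustment over the 28065 genes. A gene was called at an adjusted p under 0.05 and a change of at least 2-fold. The contrast of 1 month with the mean of 20 days and 4 months gave a log2 difference of 0.45 (SE 0.47, edgeR adjusted p = 0.64) for g23525 and 0.08 (SE 0.45, edgeR adjusted p = 0.95) for g23527, neither of them called.

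For g51141 the same contrast gave -1.36 (SE 0.17, edgeR adjusted p = 0.018), so 1 of the 3 genes was called lower, in a contrast that called 0.296% of all genes lower and 1.28% higher. All 3 of its 1-month libraries lay below all 6 others, a separation seen in 0.681% of all genes. This call did not hold without the 20-day library numbered 3 (adjusted p = 0.053), without the 20-day library numbered 8 (adjusted p = 0.063) or without the 1-month library numbered 8 (adjusted p = 0.072), with log2 values of -1.43 to -1.28 over the 9 libraries left out in turn.

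Step by step, g51141 fell by 1.23 on the log2 scale from 20 days to 1 month (SE 0.19, edgeR adjusted p = 0.0065), where 3.49% of all genes were called lower and 5.70% higher. It rose by 1.48 from 1 month to 4 months (SE 0.19, edgeR adjusted p = 0.0031), where 7.48% of genes were called higher and 9.56% lower. Both steps were called whichever library was left out (adjusted p at most 0.037 and 0.013). At 4 months it differed from 20 days by 0.25 (SE 0.18, edgeR adjusted p = 0.28).

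Neither gene of the linkage group 6 cluster was called in the single steps. Between 20 days and 1 month g23525 differed by -0.40 (SE 0.56, edgeR adjusted p = 0.68) and g23527 by -0.88 (SE 0.53, edgeR adjusted p = 0.30). From 1 month to 4 months they differed by -1.29 (SE 0.57, edgeR adjusted p = 0.12) and -1.03 (SE 0.53, edgeR adjusted p = 0.18). Each 4-month library nevertheless lay below every 1-month library for both, as in 31.6% of all genes.

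Over the whole interval both were lower. Between 20 days and 4 months g23525 fell by 1.69 on the log2 scale (SE 0.57, edgeR adjusted p = 0.038) and g23527 fell by 1.91 (SE 0.54, edgeR adjusted p = 0.019). These 2 calls of 3 stood in a contrast that called 17.8% of all genes lower and 17.5% higher, and 39.1% of genes had every 4-month library below every 20-day library. The call of g23525 was lost without any of 4 libraries, namely 20 days numbers 3 (adjusted p = 0.11) and 8 (adjusted p = 0.091) and 4 months numbers 2 (adjusted p = 0.078) and 3 (adjusted p = 0.099). That of g23527 was lost without 20 days number 3 (adjusted p = 0.058) or 8 (adjusted p = 0.061).

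The second lipoxygenase copy, g23523, followed the others of the cluster. It stood at 7.13, 13.9 and 10.7 FPKM at 20 days, 3.48, 9.43 and 3.98 FPKM at 1 month and 0.503, 1.56 and 3.44 FPKM at 4 months. It fell by 2.25 on the log2 scale from 20 days to 4 months (SE 0.65, edgeR adjusted p = 0.021) and was not called in the other contrasts. Without 20 days number 3 or 8 or 4 months number 3 that call was lost, with adjusted p of 0.065, 0.052 and 0.059.

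**Figure D3:**
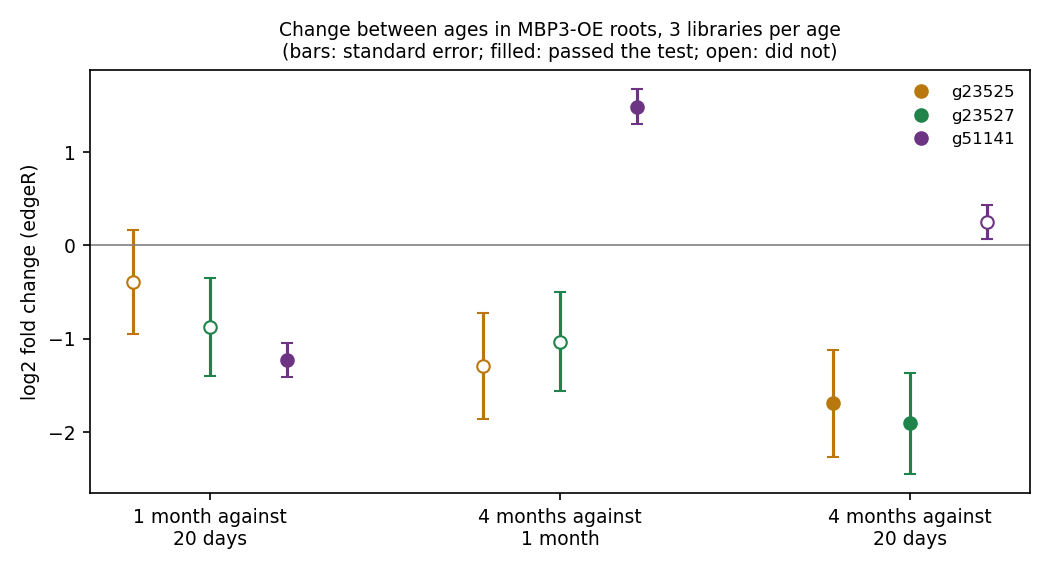
Log2 fold changes between ages in MBP3-OE from edgeR, 3 libraries per age, with standard errors as bars. Filled points passed the test and open points did not. Only g51141 was called in the steps around 1 month (-1.23 and 1.48), and only g23525 and g23527 were called from 20 days to 4 months (-1.69 and -1.91). From 1 month to 4 months g23525 and g23527 stood at -1.29 and -1.03, without a call.

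Set side by side with WT by the ages in the labels, the levels crossed at 1 month. The series description gives DR 60 days after planting, so the ages compared there may differ. At 20 days WT was 5.08-fold above the MBP3-OE mean for g23525, 3.51-fold for g23527 and 1.33-fold for g51141. At 1 month the MBP3-OE mean was 4.34-fold, 2.77-fold and 2.88-fold above WT. At 4 months WT was above again, 24.6-fold, 22.7-fold and 3.12-fold. In each of the 3 genes the WT library lay above every MBP3-OE library at 20 days and 4 months and below every one at 1 month, a pattern that 1.57% of all genes had. The choice of the genes by their WT values favours this pattern, so that share does not show it to be unusual in them. Since the WT libraries chose the genes, no difference between genotypes was tested.

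Of the 53 genes with a low point in DR, 3 (5.66%) were called lower at 1 month than at the mean of the other ages in MBP3-OE, beside 0.296% of all genes, and their median log2 difference in that contrast was -0.79, against 0.02 for all genes. None of the 53 was called higher by edgeR, where 1 had an unadjusted p under 0.05 and DESeq2 called 1, beside 1.28% of all genes. The 3 genes called were g51141, g38656, an allene oxide synthase, and g29104, a probable xyloglucan endotransglucosylase/hydrolase of the cell wall. Of the 53 genes only g51141 had all of its 1-month libraries below all others, the separation seen in 0.681% of all genes.

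**Figure D4:**
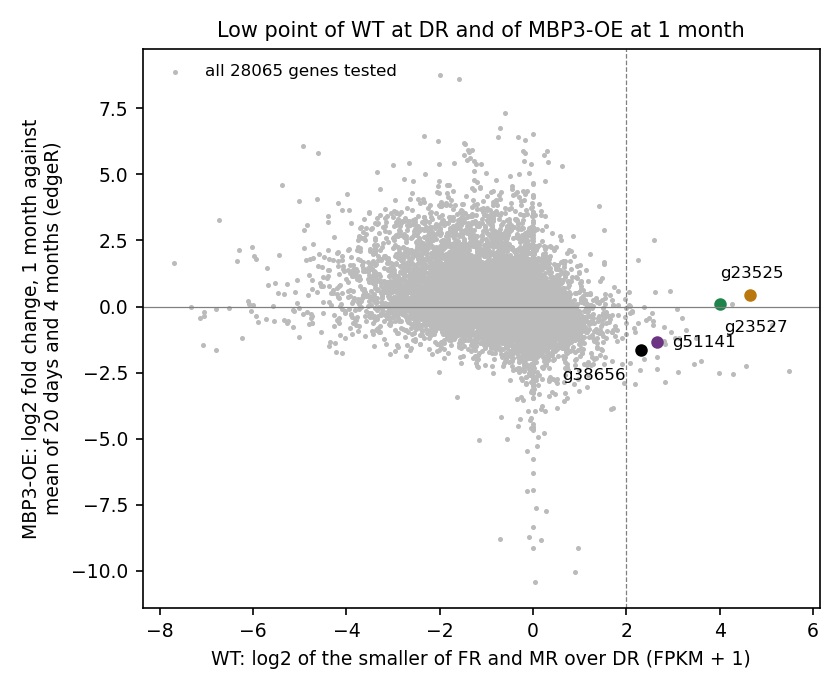
Each point is 1 of 28065 genes. The x axis gives the WT low point, as the log2 ratio of the smaller of FR and MR to DR (FPKM + 1), with the 4-fold limit as a dashed line, and the y axis gives the edgeR log2 difference of MBP3-OE at 1 month from the mean of its other ages. The genes g23525 and g23527 lie far to the right at 0.45 and 0.08, while g51141 lies lower at -1.36, beside the allene oxide synthase g38656 (black) at -1.66.

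By likeness of profile, measured as Pearson's r of log2(FPKM + 1) over the 12 libraries, g23527 ranked second for g23525 among all genes tested, while over the 9 MBP3-OE libraries alone it ranked 1719. The rank over 12 libraries thus includes the WT libraries that chose the genes. The values are descriptions over libraries that share ages and genotypes. For g23525 and g23527 r was 0.94 (Spearman's rho 0.87) over 12 libraries and 0.83 (rho 0.70) over the 9 of MBP3-OE. For g23525 and g51141 r was 0.57 (rho 0.50) over 12 libraries and -0.19 (rho -0.10) over 9. For g23527 and g51141 it was 0.61 (rho 0.55) and 0.0040 (rho 0.017).

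The gene most like g23525 was its copy g23523 (r = 0.988, rho 0.965, n = 12), followed by g23527, by g23588 (r = 0.933), another allene oxide synthase 3-like gene of linkage group 6, by the apyrase-like g7833 (r = 0.898) and by the kinase gene g9314 (r = 0.891). For g23527 the order was g23588 (r = 0.960), the ERD6-like sugar transporter g60482 (r = 0.949), the SF21-like g25916 (r = 0.949), g23525 and g23523 (r = 0.936). The gene g23588 was far less abundant, at 8.26, 0.491 and 7.31 FPKM from FR through DR to MR and 0 to 3.42 FPKM in MBP3-OE.

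The 5 genes most like g51141 included no gene of the lipoxygenase cluster. First came g16326, a 12-oxophytodienoate reductase 3-like gene (r = 0.922, rho 0.902, and 0.937 over the 9 MBP3-OE libraries), and g31615, a TIFY 6B gene (r = 0.906, and 0.956 over 9). Then came g31288, described as JAZ6 (r = 0.899, and 0.781 over 9), and the receptor-like kinase g55181 (r = 0.887, and 0.784 over 9). The last was g33888, a MYC2-like gene (r = 0.882, and 0.870 over 9). JAZ proteins, which are part of the TIFY family, are repressors of jasmonate signalling, and MYC2 is a transcription factor they hold back in Arabidopsis.

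Apart from g23523, genes close to the 3 on the chromosomes included the following. Next to g23527, g23529, a KMS1-like vacuole membrane protein gene, stood at 30.5, 18.5 and 6.69 FPKM from FR through DR to MR, and the F-box genes g23530 and g23531 at 9.41 to 15.3 FPKM and 4.74 to 7.56 FPKM over all libraries. Near g51141, g51137, a starch branching enzyme I gene, stood at 2.89, 14.3 and 170 FPKM from FR through DR to MR and at 5.08 to 6.47, 35.8 to 48.1 and 69.6 to 93.2 FPKM in MBP3-OE at the 3 ages. Its values were thus higher at each later age in both genotypes, where g51141 had its low point at 1 month. The L-ascorbate oxidase homolog g51144 ran the other way, at 82.8, 34.3 and 3.08 FPKM in WT and 26.3 to 27.0, 6.94 to 15.8 and 2.49 to 7.02 FPKM in MBP3-OE.

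The rest of the pathway was taken from lists made by words in the deposited descriptions. Of 16 lipoxygenase genes 8 were tested. Between 20 days and 1 month edgeR called none of them, 1 lay higher and 1 lower at an unadjusted p under 0.05, and DESeq2 called the same numbers. By edgeR 3 fell from 1 month to 4 months, and from 20 days to 4 months 6 fell and 1 rose, beside 17.8% and 17.5% of all genes. In the step from 1 month 9.56% of all genes fell. From 20 days to 4 months the median log2 change of the 8 lipoxygenases was -2.06, against 0.02 for all genes.

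Besides g23525 and g23523, the lipoxygenases that fell included g4314, annotated as a chloroplast 13-lipoxygenase. It stood at 16.9, 3.69 and 2.36 FPKM in FR, DR and MR, so its WT low point was in MR and not in DR. In MBP3-OE it stood at 7.62, 12.9 and 12.5 FPKM at 20 days, 15.9, 12.1 and 8.96 FPKM at 1 month and 0, 1.82 and 0.615 FPKM at 4 months. It fell by 3.57 on the log2 scale from 20 days to 4 months (SE 1.09, edgeR adjusted p = 0.026), a value in which 1 library was listed at 0. That call was lost without 20 days number 3 (adjusted p = 0.063) or 8 (adjusted p = 0.064) or 4 months number 8 (adjusted p = 0.074).

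Among the CYP74 enzymes 9 of 12 were tested and 4 of them were among the 53 genes with a low point in DR, namely g23527, g23588, g38656 and g34097. From 20 days to 1 month 1 of the 9 fell, beside 3.49% of all genes. From 1 month to 4 months 1 rose and 1 fell, beside 7.48% and 9.56%, and from 20 days to 4 months 1 rose and 3 fell, beside 17.5% and 17.8%. In the low-point contrast 1 was lower, g38656, and 1 was higher, the allene oxide synthase 3-like g43174, beside 0.296% and 1.28% of all genes. For g43174 that contrast gave 1.09 (SE 0.21, edgeR adjusted p = 0.043), a call kept in 2 of the 9 fits that leave out a library (adjusted p up to 0.13). The most abundant, g34097, another allene oxide synthase 3-like gene, on linkage group 9, stood at 269, 66.3 and 1591 FPKM in WT. In MBP3-OE it ranged from 221 to 415 FPKM at 20 days, 148 to 323 FPKM at 1 month and 40.8 to 519 FPKM at 4 months, and no contrast was called.

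The allene oxide synthase g38656, on linkage group 10, was called in the low-point contrast in MBP3-OE, as g51141 was, but was highest at 4 months. It stood at 82.1, 15.6 and 94.3 FPKM in FR, DR and MR. In MBP3-OE it stood at 26.8, 43.2 and 45.9 FPKM at 20 days, 19.6, 27.0 and 17.6 FPKM at 1 month and 81.5, 104 and 75.7 FPKM at 4 months. The 1-month libraries overlapped those at 20 days by a single value, and the 4-month libraries lay above all others. Its difference of -0.94 from 20 days to 1 month (SE 0.25, edgeR adjusted p = 0.044) stayed under 2-fold and was not called. It rose by 2.38 on the log2 scale from 1 month to 4 months (SE 0.26, edgeR adjusted p = 0.0022) and by 1.44 from 20 days to 4 months (SE 0.26, edgeR adjusted p = 0.0023), where g51141 was not called. The low-point contrast gave -1.66 (SE 0.24, edgeR adjusted p = 0.022). The latter call was lost without 1 month number 8 (adjusted p = 0.078) or 20 days number 3 (adjusted p = 0.063) or 8 (adjusted p = 0.072).

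Allene oxide cyclases, which act next in the 13-lipoxygenase branch, had 4 of 5 genes tested. Their calls were 2 falls from 20 days to 1 month (3.49% of all genes), 2 rises from 1 month to 4 months (7.48%) and 1 fall from 20 days to 4 months (17.8%). The most abundant, g29282, stood at 27.2, 11.9 and 29.9 FPKM from FR through DR to MR, and at 23.7 to 30.4, 10.5 to 19.7 and 20.3 to 33.6 FPKM in MBP3-OE at the 3 ages. It rose by 1.01 from 1 month to 4 months (SE 0.30, edgeR adjusted p = 0.040), a call that held without 4 months number 3 and was lost without any other single library (adjusted p up to 0.11). It was also lost under all 7 other settings, with log2 changes of 0.60 to 1.02 and adjusted p up to 0.12, among them the replicate block (adjusted p = 0.082).

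The 12-oxophytodienoate reductases, all 9 of them tested, had 1 rise and 1 fall from 20 days to 1 month (5.70% and 3.49% of all genes), 1 rise and 1 fall from 1 month to 4 months (7.48% and 9.56%), and 1 rise and 7 falls from 20 days to 4 months (17.5% and 17.8%). The most abundant, the 12-oxophytodienoate reductase 2-like g50545, had its highest WT value in DR, at 36.1, 92.3 and 1.43 FPKM, and g50543 likewise stood at 18.0, 42.4 and 0.234 FPKM. In MBP3-OE g50545 ranged from 28.6 to 54.4, 16.0 to 28.4 and 0.609 to 5.81 FPKM at the 3 ages and fell by 3.63 from 20 days to 4 months (SE 0.77, edgeR adjusted p = 0.0053). The gene most like g51141, g16326, stood at 30.1, 16.1 and 43.8 FPKM in FR, DR and MR. In MBP3-OE it stood at 23.7, 32.2 and 30.4 FPKM, then 17.4, 15.7 and 19.2 FPKM, then 23.3, 33.8 and 29.3 FPKM, with the 1-month libraries below all others. It rose by 1.07 from 1 month to 4 months (SE 0.19, edgeR adjusted p = 0.0072), and by 0.98, under 2-fold, without 1 month number 3. Its difference of -0.80 from 20 days to 1 month (SE 0.18, edgeR adjusted p = 0.027) stayed under 2-fold.

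Of the 22 CoA ligase genes tested, out of 29, 5 fell and 1 rose from 20 days to 1 month (3.49% and 5.70% of all genes), 1 rose and 1 fell from 1 month to 4 months (7.48% and 9.56%), and 5 fell from 20 days to 4 months (17.8%). Of these 22 only g51141 was called by edgeR in the low-point contrast. Its most abundant relative, g31522, a 4-coumarate--CoA ligase 2-like gene, stood at 197, 138 and 42.2 FPKM from FR through DR to MR and at 101 to 119, 68.7 to 85.7 and 26.7 to 80.1 FPKM in MBP3-OE, with no contrast called. The beta-oxidation enzymes, which shorten the chain after the ligase step, had 14 of 17 genes tested. In the first step edgeR and DESeq2 called none of them, with 1 higher at an unadjusted p under 0.05. From 1 month to 4 months edgeR called none, with 3 higher and 2 lower at an unadjusted p under 0.05 and 1 lower by DESeq2. Over the whole interval 2 rose and 1 fell, beside 17.5% and 17.8% of all genes.

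Jasmonate signalling genes had 22 of 27 tested. From 20 days to 1 month 7 fell and 1 rose (3.49% and 5.70% of all genes), from 1 month to 4 months 2 rose (7.48%), and from 20 days to 4 months 9 fell and 3 rose (17.8% and 17.5%). Their median log2 change from 20 days to 1 month was -0.97, against 0.03 for all genes. The list took in every gene described as TIFY, and its rises from 20 days were all of TIFY 8 or TIFY 4B-like genes. The words of the list did not take in g31288, described as JAZ6, which stood at 149, 32.0 and 208 FPKM in WT FR, DR and MR. The most abundant of the list was the TIFY 9-like g13640, at 151, 35.9 and 123 FPKM from FR through DR to MR. In MBP3-OE it stood at 105 to 132, 26.9 to 66.7 and 19.9 to 43.0 FPKM. It fell by 1.60 from 20 days to 1 month (SE 0.38, edgeR adjusted p = 0.029) and was not called from 1 month to 4 months (log2 change -0.11, SE 0.37, edgeR adjusted p = 0.84). The call at 1 month was lost without any of 5 libraries (adjusted p up to 0.097).

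The TIFY 6B gene g31615, named above for its likeness to g51141, was the gene of the signalling list called by edgeR in the low-point contrast. It stood at 5.33, 2.77 and 19.5 FPKM from FR through DR to MR, and in MBP3-OE at 4.96, 7.05 and 8.85 FPKM, 3.27, 3.24 and 3.29 FPKM, and 5.51, 10.2 and 6.61 FPKM at the 3 ages. The low-point contrast gave -1.34 (SE 0.24, edgeR adjusted p = 0.039), a call kept in 2 of the 9 fits that leave out a library, those without 4 months number 2 or 3, and lost in the other 7 (adjusted p up to 0.12). It was also lost with the replicate block (adjusted p = 0.071) and with limma on FPKM + 1 (log2 difference -0.91). It rose by 1.51 from 1 month to 4 months (SE 0.27, edgeR adjusted p = 0.0078) whichever library was left out.

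Among the remaining lists, of 3 peroxygenases tested, out of 5, edgeR and DESeq2 called none from 20 days to 1 month (1 had an unadjusted p under 0.05) and by edgeR 1 rose from 1 month to 4 months. Neither of the 2 alpha-dioxygenases passed the filter. Of 28 wound proteins tested, mostly proteinase inhibitors, 2 rose from 20 days to 1 month, 6 rose and 6 fell from 1 month to 4 months, and 12 rose and 4 fell from 20 days to 4 months, beside 5.70%, then 7.48% and 9.56%, then 17.5% and 17.8% of all genes. Genes with the Gene Ontology term for response to wounding numbered 217 tested, with 34 falls and 5 rises from 20 days to 1 month (3.49% and 5.70% of all genes) and 3 called lower and 1 higher in the low-point contrast (0.296% and 1.28%). Those with the term for jasmonic acid biosynthesis, which include g51141, numbered 56 tested, with 7 falls and 1 rise over the same step and 2 called lower in the low-point contrast, beside the same shares of all genes.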

How the data were processed

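Root RNA-seq of 12 libraries was used. Reads were trimmed (cutadapt 1.9) and aligned (HISAT2 2.0.4) by the authors against a sweetpotato genome from the Ipomoea Genome Hub (build not given in the sources used here) and quantified in StringTie 1.3.4d. FPKM, normalized for exon length and mapped fragments, was used as deposited by the authors. The table's deposited counts are whole numbers, and how they were made is not given in the sources used here.

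The members and lists were chosen with earlier results of these data known. After TMM scaling the counts were tested by edgeR's quasi-likelihood method over 6 groups of genotype and age (6 residual degrees of freedom), for the 28065 genes whose mean reached 0.5 FPKM. The spread, pooled over ages, was a coefficient of variation of 0.234 at 20 days, 0.405 at 1 month and 0.500 at 4 months. Calls needed a Benjamini-Hochberg adjusted p under 0.05 and at least 2-fold. WT ratios used log2(FPKM + 1), with no test. The test was checked on simulated counts drawn with the same spread at every age, so that check did not cover a spread that differs by age.

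Named genes were drawn from the 3 members, genes with ID numbers within 5 of theirs, the 3 most abundant genes of a list, the 5 most like each member and the 10 deepest WT low points, while g29104, g43174, g46899 and g58581 were named after their values were seen. Alternatives covered the scaling, DESeq2, limma, pseudocounts of 1 and 0.1, the filter, a replicate block, the 9 MBP3-OE libraries alone and each of them left out. Same-numbered MBP3-OE libraries did not deviate together, so the numbers were not taken to pair them. Coordinates are those of the deposited table. The authors' functional annotation was used for names and terms only. The R packages were DESeq2 1.42.0, limma 3.58.1 and edgeR 4.0.16 under R 4.3.3. Tables and plots were made in Python 3.11.15 (SciPy 1.17.1, NumPy 2.4.6, pandas 2.3.3, Matplotlib 3.10.9).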

Additional observations from a re-analysis of the deposited data

Results flagged for a closer look

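By the ages in the labels, g23525 and g23527 moved in opposite ways in the 2 genotypes from 1 month to 4 months. For g23525 the log2 ratio of FPKM + 1 was 4.94 in WT, from 1 library per age, and -1.61 in MBP3-OE, from the means of 3 libraries. For g23527 it was 4.55 in WT and -1.29 in MBP3-OE. In both genes the FPKM of every MBP3-OE library at 4 months lay below that of every one at 1 month, while the WT library was higher at 4 months. On scaled counts the MBP3-OE libraries of these ages overlapped. Neither gene was called in this step (edgeR adjusted p = 0.12 for g23525 and 0.18 for g23527). The difference between the genotypes was not tested, because the WT libraries chose the genes.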

How the results depend on the processing

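The calls of g51141 in the steps from 20 days to 1 month and on to 4 months kept their direction and passed the test under every alternative run. The spread was wider at 4 months, and WT had 1 library per stage, so small changes could not be seen. Relative to edgeR, the FPKM + 1 scale shifted the median of all genes from -0.01 to -0.27 between 1 month and 4 months. The cause of the differences given here was not tested.

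Counts of genes called moved as follows. For 1 month against 20 days 2581 genes were called, 3962 by DESeq2 and 895 to 3501 with libraries left out. For 4 months against 1 month 4782 were called, 2986 to 5856 with libraries left out, and for 4 months against 20 days 9883, 8170 to 10419. For the low point at 1 month 442 were called, 1768 by DESeq2, 961 and 1007 by limma with 0.1 and 1 added, and 20 to 1288 with libraries left out. With a replicate block by the numbers 2, 3 and 8 the low-point contrast called 199 genes, and the block changed no call of the 3 genes. Deviations of same-numbered libraries had r of -0.091 to 0.13, and of different-numbered ones -0.125 to 0.181.

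In WT, adding 0.1 to FPKM gave log2 ratios of DR to FR and MR of -4.75 and -5.05 for g23525, -4.08 and -4.62 for g23527 and -3.04 and -4.26 for g51141. TMM-scaled counts, with 1 added, gave -4.91 and -5.31, -4.23 and -4.88, and -3.07 and -4.39. The genes with a low point in DR numbered 173 with 0.1 added and 17 at 8-fold. Over the MBP3-OE libraries alone, Pearson's r with g51141 was -0.186 for g23525 and 0.00401 for g23527.

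Signs turned for values that were not called. From 20 days to 4 months g51141 was at -0.0163 and -0.0152 by limma with 0.1 and 1 added. In the low-point contrast g23525 ran from -0.0303 without 1 month number 3 to 0.859 with libraries left out, and g23527 from -0.430 to 0.313, at -0.430 without 1 month number 2, -0.0672 without 20 days number 2 and -0.110 without 4 months number 2. From 1 month to 4 months g23525 was called lower by DESeq2 (-1.34, adjusted p = 0.045), by limma with 0.1 or 1 added (-1.80 and -1.72, adjusted p = 0.034 and 0.029) and by edgeR without 4 months number 8 (-2.13, adjusted p = 0.030).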

Other observations

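The other deep low points of WT were mostly lipid-acting enzymes. Of the 10 deepest with an informative description, 6 were phospholipase A1-II genes of linkage group 11 and 1 was a patatin-like gene, both being classes of enzymes that release fatty acids from membrane lipids, and the remaining 3 were g23525, g23523 and g23527. The deepest, g46055, stood at 56.5, 0.281 and 462 FPKM in FR, DR and MR. In MBP3-OE it stood at 29.7, 22.3 and 39.6 FPKM at 20 days, 3.52, 24.5 and 4.20 FPKM at 1 month and 0.908, 22 and 210 FPKM at 4 months.

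The patatin-like g4095 stood at 283, 7.19 and 1353 FPKM in WT and at 84.3, 123 and 184 FPKM, 78.9, 107 and 30.5 FPKM and 6.87, 65.2 and 158 FPKM in MBP3-OE at the 3 ages. None of these 7 phospholipase and patatin genes was called by edgeR in any MBP3-OE contrast. From 1 month to 4 months 2 of them lay higher at an unadjusted p under 0.05 and DESeq2 called 1, and in the other contrasts no such p and no DESeq2 call was found. Their 4-month libraries were widely spread, with number 8 the highest in each.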
